A study of Homo sapiens with 6 samples.

Results

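The peaks gained with both inhibitors were 6841 regions of SKOV3WT chromatin at which H3AcK9, histone 3 acetylated at lysine 9, was called after vorinostat and after romidepsin but not in untreated cells. They were 4.66% of the 146948 wide peaks of the first vorinostat list (exact 95% binomial interval 4.55 to 4.76%, counting error only), and they covered 5.92 Mb. All 5 deposited lists together held 3983296 peaks. The members were chosen by measured values, namely the positions and widths of the peaks themselves. A member is a peak of the first vorinostat list at least 500 bp wide that shares at least 1 bp with a peak at least 500 bp wide in each of the other 3 treated lists and no base with any untreated peak, on the 20 autosomes left when chromosomes 13 and 21 are set aside. Since the rule used these values, the presence of a peak after treatment and its absence before are not findings, and no test was made on them.

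SKOV3WT is an established human ovarian carcinoma cell line. One culture condition was untreated, one was exposed for 24 h to vorinostat and one for 24 h to romidepsin, each drug at 1 times its IC50, and no genetic change distinguished the groups. Each condition had 1 H3AcK9 ChIP sample and 1 input sample, and each treated ChIP sample was split in 2 and has 2 peak lists. The labels and the study's reporting summary both give this split. Elsewhere the study speaks of independent experiments or biological replicates, and which holds is not settled here. The lists of a drug are counted here as 1 sample, the untreated condition has a single list in either case, and p-values are not given.

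Acetylation of lysine 9 on histone 3 is laid down by histone acetyltransferases and is typical of active promoters and enhancers. Histone deacetylases (HDACs) take it off again. Vorinostat, a hydroxamic acid that chelates the zinc ion of several classes of HDACs, and romidepsin, a cyclic peptide prodrug that acts mainly on class I enzymes, both block this removal.

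The 5 lists were not called at the same resolution, and this bears on every value below. On the 20 autosomes the untreated list held 352674 peaks with a median width of 542 bp, while the treated lists held between 851523 and 884969 peaks with median widths between 205 and 219 bp. The smallest gap between neighbouring peaks was 509 bp in the untreated list, 205 bp in both vorinostat lists and 201 bp in both romidepsin lists. The part that this difference plays in the gains was not tested beyond the joining of treated peaks described with the gaps. The score deposited with each peak has no stated scale, and the depth of the libraries behind the lists is unknown from the files.

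Most wide vorinostat peaks were not gained. Of the 146948 wide peaks of the first vorinostat list, 109511 (74.5%) shared a base with an untreated peak and 37437 (25.5%) did not. A wide peak of the second vorinostat list lay over 21659 of these 37437 (57.9%), so even the other list of the same sample lacked a wide peak at the rest. Adding the first romidepsin list left 8254 (38.1% of the preceding step), and adding the second romidepsin list left the 6841 members (82.9%). The steepest losses were thus at the untreated list and at the change of drug, and the smallest was between the 2 romidepsin lists.

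Wide vorinostat peaks without an untreated peak recurred less often than those with one. A wide peak of the first romidepsin list lay over 33.8% of the former and 70.1% of the latter, and a wide peak of the second romidepsin list over 29.4% and 68.0%. All 3 other treated lists had a wide peak over 18.3% of the peaks without an untreated peak, which are the members, and over 56.9% of the peaks with one. With a peak of any width accepted in the other lists, these shares were 63.6% and 90.9%. Peaks missing from one of a pair of lists were as common in the opposite direction. Between 22.4 and 26.7% of the wide peaks of a single treated list had no untreated peak, and between 22.1 and 26.3% of the 191079 wide untreated peaks had no peak of any width in that list.

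The like sets were smaller or larger by the same kind of rule. Wide peaks of both vorinostat lists with no base in an untreated or romidepsin peak numbered 3138 (2.14% of the wide peaks of the first vorinostat list). Wide peaks of both romidepsin lists with no base in an untreated or vorinostat peak numbered 5547 (3.15% of the 176046 wide peaks of the first romidepsin list). Wide untreated peaks with no base in any of the 4 treated lists numbered 18358 (9.61% of 191079), more than the peaks gained with both.

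The members were wider than these sets. Their median width in the first vorinostat list was 748 bp, and 1723 of them (25.2%) reached 1000 bp. The median width of the vorinostat-only peaks was 587.5 bp, with 2.17% at 1000 bp or more, and that of the romidepsin-only peaks was 603 bp, with 4.54%. The other 30596 wide peaks of the first vorinostat list without an untreated peak had a median of 625 bp, with 7.92% at 1000 bp or more. A wide peak has more bases at which to meet peaks of the other lists, so width is tied to the rule and the order of these medians was not tested. Wide vorinostat peaks that recurred in all treated lists and had an untreated peak were wider still, with a median of 1153 bp over 62358 peaks.

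In the 4 treated lists, the widest peak over a member had a median width of 748 and 738 bp with vorinostat and of 916 and 883 bp with romidepsin. Both romidepsin widths exceeded both vorinostat widths at 3323 members (48.6%), and the reverse held at 1770 (25.9%). This order turned with the list from which members were taken: with the first romidepsin list as the starting list, 6790 regions met the rule and their median widths were 848 and 812 bp with vorinostat and 774 and 786 bp with romidepsin. No drug can therefore be said to give the wider gained peaks. In all 4 lists, 496 members (7.25%) reached 1000 bp and 11 reached 2000 bp.

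The lists matched more closely within a drug than between drugs. The lists of a drug are counted as 1 sample, so a difference between drugs cannot be told apart here from one between samples. Peaks of the second vorinostat list covered 91.0% of the members' bases, and those of the romidepsin lists 72.5 and 71.1%. The second vorinostat list had the very same start and end at 1874 members (27.4%), the first romidepsin list at 1 and the second at 0. The romidepsin lists shared start and end with each other at 1823 members (26.6%). A member was broken up, with more than 1 peak over it, at 9.74% of members in the second vorinostat list and at 28.0 and 28.3% in the romidepsin lists. Bases covered in all 4 lists made up 62.6% of the members' bases, or 3.71 Mb. This common core had a median length of 525 bp (quartiles 366 and 660 bp) and reached 500 bp at 3866 members (56.5%), while 25 members (0.365%) had no base in common to all 4 lists. Some neighbouring members lay under 1 romidepsin peak, since the widest peaks over the 6841 members were 6670 different peaks in the first romidepsin list and 6661 in the second.

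The score did not set the members apart. Its median was 0.880 and 0.877 in the vorinostat lists and 0.876 in each romidepsin list, against 0.885, 0.877, 0.880 and 0.875 for all wide peaks of the same lists. A score of at least 1 was present in all 4 lists at 120 members (1.75%).

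The counts next to the 500 bp limit are partly set by the rule, which asks for 500 bp in every treated list. With a limit of 300 bp in every treated list, 23542 regions met the rule, so such regions did not thin out below 500 bp. Widths less than 10 bp above the limit in the first vorinostat list were found for 164 members, and 75 peaks up to 10 bp below the limit met every other condition. The 3 members just inside, each 500 bp wide in that list, lay at chr11:76020503-76021002 (1733, 916 and 1721 bp wide in the second vorinostat, first romidepsin and second romidepsin list), chr12:53634591-53635090 (500, 1196 and 1196 bp) and chr12:122594645-122595144 (500, 668 and 663 bp). The 3 peaks just outside, each 499 bp wide, lay at chr1:161450889-161451387 (507, 753 and 752 bp), chr1:230894687-230895185 (662, 869 and 869 bp) and chr10:73016526-73017024 (946, 2108 and 2073 bp). The peaks just inside and just outside overlapped in their widths in the other lists. All positions are 1-based and in hg19, the build that the lists follow. No hg19 annotation was used, so the members are named by position and not by gene.

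The gained peaks lay close to acetylation that was already there. The gap from a member to the nearest untreated peak had a median of 673 bp (quartiles 311 and 1501 bp). It was under 1 kb at 4278 members (62.5%), from 1 to 10 kb at 2483 (36.3%), from 10 to 50 kb at 74 (1.08%) and 50 kb or more at 6. Of all bases outside untreated peaks, 23.1% lay under 1 kb from one and 14.2% lay 50 kb or more away, with a median of 4404 bp. These bases were taken between the first and last untreated peak of each chromosome. Any stretch in which no peak can be called is among them. At 11 members the peak began where an untreated peak ended or the reverse, and 1280 members (18.7%) had an untreated peak within 1 kb on both sides.

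The sets seen with a single drug lay farther out than the members. A gap under 1 kb was found for 49.0% of the romidepsin-only peaks and 38.5% of the vorinostat-only peaks, with medians of 1028 and 1459 bp. The other wide peaks of the first vorinostat list without an untreated peak lay nearer than either, with 50.7% under 1 kb and a median of 979.5 bp. With the treated peaks joined to the resolution of the untreated list, the members numbered 15358, their median gap was 959 bp and 51.6% lay under 1 kb.

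The untreated gaps that held members were longer than the median gap, and the members' own peaks seldom filled them. The gap that held a member had a median length of 4400 bp, against 2058 bp for all untreated gaps, and a member filled a median of 18.6% of it. At 552 members (8.07%) the peak filled at least 50% of the gap. Filling was measured with the peak of the first vorinostat list, the only treated peak that the rule keeps off untreated peaks. Peaks of the other treated lists over a member could run onto untreated peaks. At some members such a peak was longer than the whole gap, and the share of these members was not obtained. Gaps of 10 kb or more held 1242 members (18.2%). The median of all gaps counts each gap once, whereas a long gap has more room for a wide peak. A base outside untreated peaks lay a median of 4404 bp from one, which needs a gap longer than the members' median. Counted by bases, with any stretch in which no peak can be called included, the gaps that held members were therefore not long. The part of gap length in the longer median was not tested.

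Most untreated peaks next to the members shared a base with a peak of every treated list. They were 6489 different peaks with a median width of 649 bp, against 542 bp for all untreated peaks. All 4 treated lists touched 65.2% of them, against 40.3% of all untreated peaks, and 6.52% were touched by none, against 21.5%. Peaks of the vorinostat lists covered 54.5 and 54.1% of their bases (all untreated peaks 42.3 and 41.9%), and those of the romidepsin lists 60.3 and 60.0% (45.2 and 44.7%). The gains thus stood beside acetylation that was retained more often than elsewhere. These neighbours were also wider, and the part of their width in this was not tested. A peak of another treated list over a member could also reach its neighbour, and the part of this was not tested either.

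The acetylated surroundings reached well past the nearest peak. At 10 to 20 kb from the centres of the members, 26.5% of the bases lay in untreated peaks, against 12.3% of the chromosomes as a whole. The whole is the span from the first to the last untreated peak, again with no stretch left out. Vorinostat peaks covered 27.5 and 26.0% of these flanks (whole 11.0 and 10.5%), and romidepsin peaks covered 32.1 and 30.7% (whole 12.1 and 11.6%). Untreated peaks covered 14.6% of the same flanks around vorinostat-only peaks and 23.7% around romidepsin-only peaks. They covered 36.5% around recurring vorinostat peaks that had an untreated peak. By their untreated flanks, the members were thus between the romidepsin-only peaks and the kept peaks.

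Treated coverage declined with distance from a member, and untreated coverage changed less. In the first romidepsin list it was 41.1% at 1 to 2 kb, 37.3% at 2 to 5 kb, 34.4% at 5 to 10 kb and 32.1% at 10 to 20 kb. In the first vorinostat list it was 34.6, 31.8, 29.6 and 27.5% over the same distances. The untreated list had 26.1, 28.2, 27.6 and 26.5%. The rule asks for wide treated peaks and no untreated base at each member. In the first romidepsin list a peak over a member could be up to 11271 bp wide. The nearest bands are therefore partly set by the rule, and how far out this reaches was not tested. The romidepsin lists stayed above the untreated list out to 20 kb, whereas the vorinostat lists came down to within 1.0 percentage point of it. These shares are not scaled to the whole lists, and the vorinostat lists covered the least of the chromosomes. They covered 11.0 and 10.5%, against 12.1 and 11.6% with romidepsin and 12.3% untreated, so the contrast between the drugs cannot be told apart from this difference.

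Gained peaks were found on all 20 autosomes. Per 1000 wide peaks of the first vorinostat list there were between 38.1 members (chromosome 3) and 53.1 (chromosome 22). Chromosome 19, the most gene-dense human chromosome, held 467 members (6.83%), or 7.92 per Mb, against 1.34 per Mb on chromosome 4 at the other end. Per 1000 wide vorinostat peaks these chromosomes were alike, with 51.2 members on chromosome 19 and 51.3 on chromosome 4. Untreated peaks covered 29.1% of chromosome 19 and 7.25% of chromosome 4. Only 18.8% of the wide vorinostat peaks of chromosome 19 had no untreated peak, the lowest share of all, but 27.3% of those became members, against 14.9 to 21.3% on the other chromosomes. Of the vorinostat-only peaks 1.27% lay on chromosome 19, of the romidepsin-only peaks 5.68% and of the peaks lost with both 1.06%.

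Most windows with a member held a single one. Of 4485 windows of 100 kb with a member, 3015 (67.2%) held 1, which is 44.1% of the members, and 90 windows with 5 or more held 526 members (7.69%). The centres of neighbouring members were a median of 91443 bp apart, with 9.94% of these spacings under 5 kb.

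The 6 windows richest in members had more bases in peaks with either drug than without, in every list. At chr19:46700001-46800000, with 11 members of 713 to 5426 bp, untreated peaks covered 14317 bp, vorinostat peaks 56627 and 47893 bp and romidepsin peaks 60163 and 50116 bp. At chr19:45900001-46000000, with 13 members of 567 to 2883 bp, the values were 43897 bp untreated, 59987 and 53379 bp with vorinostat and 72362 and 65261 bp with romidepsin. The members there were 13 of the 39 wide vorinostat peaks of the window. The drugs overlapped at the first of these windows, and both romidepsin lists covered more than both vorinostat lists at the second.

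Romidepsin peaks also covered more in 3 further windows. At chr16:1100001-1200000, with 11 members, the covered length was 12913 bp untreated, 30196 and 32039 bp with vorinostat and 58326 and 61501 bp with romidepsin. At chr9:135000001-135100000, with 9 members, it was 13756 bp, then 40130 and 40365 bp, then 57413 and 52088 bp. At chr2:71700001-71800000, with 11 members, it was 21229 bp, then 35473 and 34749 bp, then 43109 and 39495 bp. In these 3 windows both romidepsin lists covered more than both vorinostat lists, although the number of treated peaks was much alike (78 and 81 vorinostat and 92 and 91 romidepsin peaks in the window of chromosome 16). The window at chr8:143600001-143700000, with 9 members, went from 8272 bp untreated to 29840 and 25796 bp with vorinostat and 28207 and 29350 bp with romidepsin, so there the drugs overlapped. These windows were picked for their members, so their gain in coverage is a description.

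The 8 members that were widest by their smallest width over the treated lists lay on chromosomes 17 (4 members), 19 (2), 12 and 9. The widest, at chr17:46125753-46131407, measured 5655 and 5149 bp with vorinostat and 3610 and 3868 bp with romidepsin, in an untreated gap of 13067 bp whose nearer edge was 2953 bp away. The member at chr19:45950810-45953692 measured 2883, 2847, 3157 and 2920 bp in the same order and lay 398 bp from an untreated peak. Its widths were alike with both drugs. The member at chr19:46727184-46731106 measured 3923, 2716, 2746 and 2742 bp, and that at chr17:48279137-48283414 measured 4278, 2254, 3380 and 3684 bp and filled most of an untreated gap of 5091 bp. At both, the vorinostat lists differed from each other by more than the romidepsin lists did. The other 4, at chr12:57919193-57921687, chr9:36779944-36782376, chr17:77267504-77269936 and chr17:47336942-47339045, had smallest widths of 2179, 2168, 2109 and 2079 bp.

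The 5 members with the highest smallest score lay at chr20:46468639-46469471, chr19:1694595-1695531, chr19:24235381-24236982, chr3:14503148-14503895 and chr17:47841897-47842700, with smallest scores of 1.60, 1.41, 1.30, 1.25 and 1.24. Their widths in the first vorinostat list were 833, 937, 1602, 748 and 804 bp, and none of them was among the 8 widest.

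Of the 5 members farthest from an untreated peak, that at chr4:55524502-55526136 lay 102599 bp from the nearest untreated peak, inside an untreated gap of 207261 bp, and measured 1635 and 1857 bp with vorinostat and 806 and 2234 bp with romidepsin. The romidepsin lists differed there more than the drugs did. That at chr12:107712152-107712722 lay 95546 bp away and measured 571, 574, 829 and 1307 bp. The members at chr2:91953593-91954110, chr10:92177949-92178694 and chr14:101246912-101247477 lay 83717, 58739 and 55967 bp away. At the chromosome 10 member, romidepsin peaks covered 79 of its 746 bp in both lists, so the overlap that made it a member was slight.

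The study looked for human endogenous retroviruses (HERVs), remnants of ancient retroviral infections whose transcription can be released by HDAC inhibitors. Of the 83 HERV loci that it listed with changed peaks on these samples, 80 lay on the 20 autosomes used here, and 1 of these held a member. Because the loci were picked on these samples, the counts are a description. Inside the 80 loci lay 161 wide peaks of the first vorinostat list, of which 4 had no untreated peak. Of all wide peaks of that list, 25.5% had no untreated peak and 4.66% met the rule. The member was at chr19:53131907-53132540, in an HERVH locus, and measured 634 and 643 bp with vorinostat and 656 and 893 bp with romidepsin, 625 bp from the nearest untreated peak. In hg38, with the GENCODE annotation, this locus overlaps ZNF83, a zinc finger protein gene. The gene belongs to the locus and was not matched to the member itself.

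Within 20 kb of a HERV locus lay 24 members (0.351%), at 19 loci, and within 10 kb lay 11, at 11 loci. The share of all wide vorinostat peaks at these distances was not obtained, so no enrichment or depletion can be read. The loci described next are examples picked after the values were seen, and their genes form no tested theme. The HERVIP locus at chr14:93088762-93095953, which overlaps RIN3 in hg38, a gene for a guanine nucleotide exchange factor of Rab5-type GTPases, had 5 members within 20 kb, on both sides, with widths of 538 to 802 bp in the first vorinostat list. The HERVL locus at chr5:10716252-10725049, which overlaps DAP in hg38, a death-associated protein gene, had a member 636 bp away that measured 556 and 924 bp with vorinostat and 1325 and 1082 bp with romidepsin. The HML3 locus that overlaps TNFRSF21 in hg38, a death receptor gene, had one 6726 bp away with widths of 653, 639, 715 and 708 bp. At the member near the HERVL locus the romidepsin peaks were the wider, and at the one near the HML3 locus all 4 widths were alike. The ERV-V2 locus, whose envelope gene ERVV-2 the study followed, held no member. The study reports raised acetylation at this locus with both drugs, and also a peak there in untreated cells. The rule leaves out peaks that share a base with an untreated peak, so the lack of a member does not speak against that increase. The nearest member lay 16392 bp on the upstream side of the locus and measured 549, 512, 542 and 542 bp.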

How the data were processed

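H3AcK9 ChIP-seq was done on 3 SKOV3WT samples, with 3 input samples that have no peak list of their own here. Per the labels and the study's methods, the authors aligned reads with BWA and called peaks with MACS 1.4.2 separately for each list. The study's methods name a Drosophila chromatin spike-in; whether it scaled the lists is not given in the sources used here. The authors deposited positions and a score for each peak, in 5 lists, and the scale of this score is not stated. The labels name hg38, but on 12 of the 20 autosomes peaks end beyond the hg38 chromosome end, and the study pairs them with hg19 coordinates. They were read as hg19, no coordinates were converted, HERV loci were matched to genes by their own hg38 coordinates from the study and GENCODE release 44, and the pathway gene lists planned for an annotation of that build were not used.

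Overlaps, widths, gaps and coverage were obtained in Python 3.11.15 (pandas 2.3.3, NumPy 2.4.6, SciPy 1.17.1; plots in Matplotlib 3.10.9). The interval functions recovered 5 of 5 quantities on simulated data, and bedtools 2.31.1 gave the same 6841 members. The value of a member in another list is that of the widest peak of at least 500 bp that shares a base with it, and a gap is the number of bases between 2 features. The members and the comparison sets were chosen with earlier results of these data known. Members were named by rule: the 8 with the largest smallest width, the 5 with the highest smallest score and the 5 farthest from untreated peaks, the 5 windows of 100 kb with the most members (6 with a tie), members in HERV loci, and 3 peaks on each side of the width limit. Members near HERV loci were named after their values were seen. With 1 sample per group no test was planned or made. Changes of width, overlap, gap, score, starting list and chromosomes were tried as alternatives. Sequencing depth is unknown from the lists, so no interval for a single peak is given.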

Additional observations from a re-analysis of the deposited data

Results flagged for a closer look

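The rule left out 3 chromosomes on which at least one romidepsin list has no peak, and signal was found there in lists that the comparisons do not use. Wide peaks of the first vorinostat list with no untreated peak and a wide peak in the second vorinostat list numbered 575 on chromosome 13 (18.5% of its wide vorinostat peaks), 280 on chromosome 21 (16.7%) and 450 on chromosome X (20.4%), against 14.7% on the 20 autosomes used. Neither romidepsin list has a peak on chromosomes 13 and X, and on chromosome 21 the first has 11806 and the second 0. No gain with both inhibitors was read there, and the cause of the missing romidepsin peaks was not tested.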

How the results depend on the processing

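No paired analysis was possible because no test was made and no group has a second sample. Of 16 alternatives, 13 were planned and 3 were added once the data had been seen. The members stayed within 1.5 times the main count of 6841 in 8. It was 23542 at a minimum width of 300 bp (8.30% of the starting list, 14.6 Mb) and 496 at 1000 bp (0.999%, 0.751 Mb). It was 4556 with at least 50% of the vorinostat peak shared (3.10%, 3.75 Mb), 2563 at 1000 bp or more from untreated peaks (1.74%, 2.28 Mb) and 135 with only treated peaks of score 1 or more (0.296%, 0.131 Mb). Of the added alternatives, joining treated peaks less than 509 bp apart, with those under 127 bp dropped, gave 15358 (8.32%, 18.2 Mb), the first list of each drug alone 12672 (8.62%, 10.3 Mb), and any width in the other lists 23792 (16.2%, 18.3 Mb). The share of the starting list was 5.01, 3.86 and 4.10% when that was the second vorinostat, first romidepsin or second romidepsin list, and 6.24, 5.56 and 5.62% without the requirement of the second vorinostat, first romidepsin or second romidepsin list. The median gap to an untreated peak and the share under 1 kb moved beyond their intervals in 6 alternatives: 712 bp and 61.3% at 300 bp, 631.5 bp and 64.5% at 1000 bp, 1910 bp and 0.0% (by construction) at 1000 bp or more from untreated peaks, 807 bp and 57.0% with the score filter, 959 bp and 51.6% with joined peaks, and 789 bp and 57.7% with any width. Why the other values moved was not tested. The depth of each library is unknown from the lists, so a gain cannot be told apart from a peak missed in the untreated list.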

Other observations

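The members with the highest scores were drawn toward chromosome 17. It held 5.26% of all members, but 21 of the 100 with the highest smallest score and 11 of the 100 with the largest smallest width. The stretch from 45 to 50 Mb of chromosome 17 alone held 78 members (1.14%), of which 9 were among the 100 highest by score and 8 among the 100 widest. The score of all wide peaks was also higher there, untreated cells included: its median in this stretch was 1.44 in the untreated list, 1.07 and 1.08 after vorinostat and 1.08 and 1.05 after romidepsin. On the 20 autosomes the corresponding medians were 0.920, then 0.885 and 0.877, then 0.880 and 0.875. The stretch was chosen after the values were seen, and the part of this general rise in the members' scores was not tested.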
